A study of Mus musculus with 5 samples.

Results

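The genes described here are 50 mouse genes that copy DNA in S phase or supply that copying, compared between leukaemia cells and normal myeloid cells. They were chosen by name, as genes of origin licensing, of the replicative helicase, of the DNA polymerases, of the clamp and its loader, of nucleotide supply and of the E2F transcription factors. All 50 were found among the 34240 features of the deposited table, 6 of them (the Orc genes) under an older symbol, and all 50 passed the filter of at least 1 RPKM in at least 2 libraries. RPKM is a read count scaled to transcript length and to the mapped reads of the library, so levels of different genes can be set side by side.

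The AML group held 2 libraries of acute myeloid leukaemia cells that carried Mac, Gr1 and B220 on their surface, sorted from bone marrow and spleen. The study is of CNTRL-FGFR1 leukaemia, in which part of the centriole protein CNTRL is joined to the kinase FGFR1. The normal group held 3 libraries of bone marrow cells sorted for Gr1 and Mac1. All 5 came from BALB/c mice whose age is given as 10 to 12 months. B220 and spleen belonged to the AML group alone, so sort and tissue cannot be told apart from the leukaemia. The labels do not name the animals behind each library, so p-values measure the spread between these libraries alone, and that spread may be technical. They also do not say how the fusion was introduced, and the normal cells came from normal mice. The read depth of the libraries is unknown.

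DNA replication starts when the origin recognition complex (ORC), Cdc6 and Cdt1 load the MCM helicase onto DNA in G1. Kinases and the GINS complex then switch the helicase on, primase and the polymerases copy the strands, and the sliding clamp PCNA, placed by the RFC loader, holds the polymerases on DNA. E2F factors drive transcription of most of these genes at the entry into S phase. In normal marrow, granulocytic cells divide up to the myelocyte stage and then stop, so a sort on Gr1 and Mac1 takes in dividing and non-dividing cells.

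Of the 50 replication genes 36 rose in AML cells and none fell (limma, Benjamini-Hochberg adjusted p under 0.05). Across all 10166 tested genes 1959 rose, a background of 19.3%, and 1196 fell, a background of 11.8%. Both AML libraries stood above all 3 normal libraries for 42 of the 50 genes, against 34.8% of all tested genes, and both stood below them for 1 gene, E2f2, against 22.1%. The median log2 fold change, AML minus normal on the log2(RPKM + 1) scale, was 1.34 for the replication genes and 0.12 for all tested genes. Summed over the 50 genes, levels reached 2083 and 1900 RPKM in AML libraries 1 and 2, against 769, 850 and 716 RPKM in normal libraries 1 to 3. In sorted bulk cells a larger share of replicating cells and more replication RNA per replicating cell cannot be told apart.

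**Figure D1:**
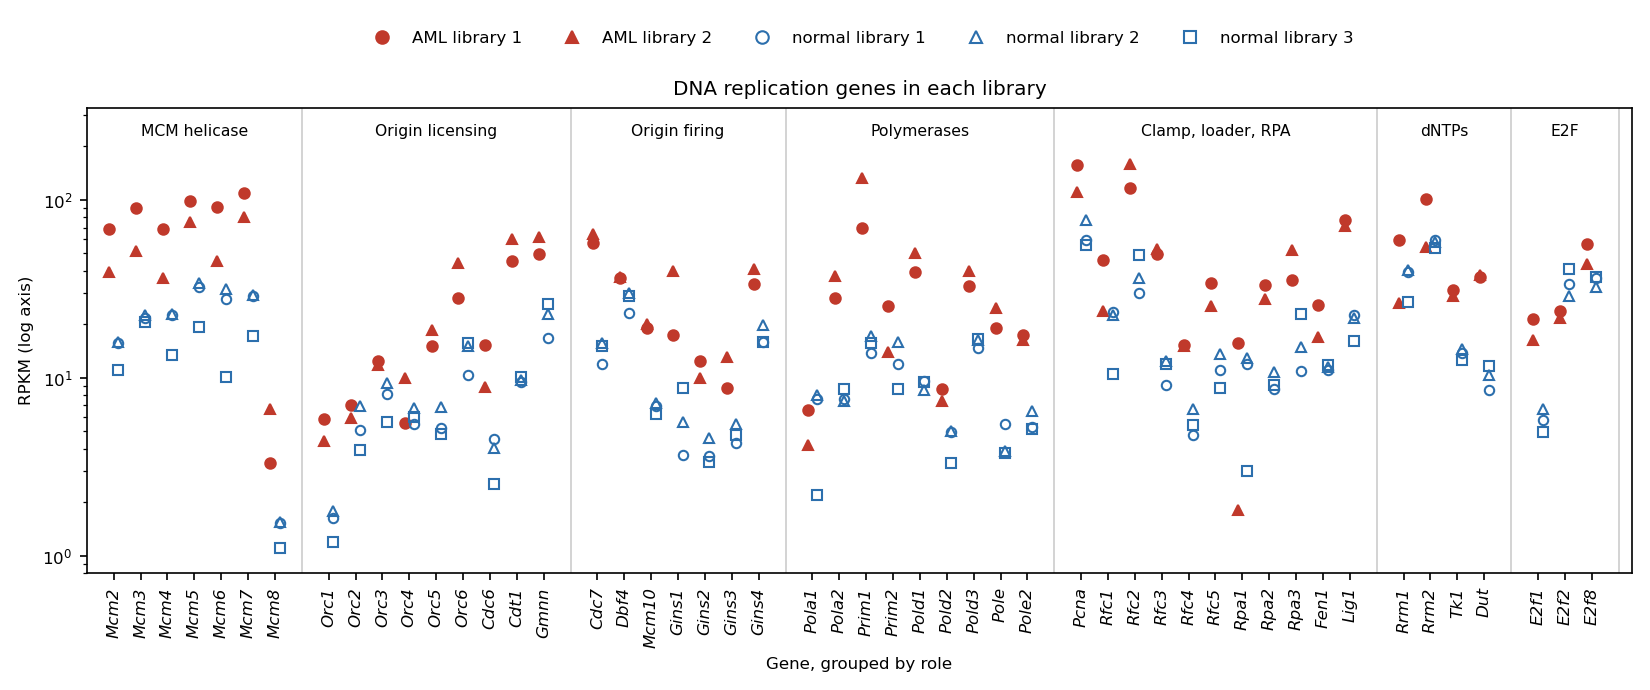
RPKM of each of the 50 replication genes on a log axis, grouped by role, with filled red symbols for the 2 AML libraries and open blue symbols for the 3 normal libraries. Both red symbols lie above all blue ones for 42 genes, and E2f2 is the only gene with both below.

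Upper quartile scaling moved the median of all tested genes to -0.15, and under it 1128 genes of the whole table were higher and 1687 lower. The median of the replication genes minus that of all tested genes was 1.22 as deposited and 1.21 under that scaling. It gave 30 higher replication genes, without Mcm4, Orc6, Gins3, Gins4, Pcna and Fen1, and called E2f2 lower. Scaling to equal totals gave 31, without Mcm4, Cdc6, Pcna, Rfc5 and Fen1. Leaving out AML library 1 or 2 gave 24 and 19 higher genes, in fits that assume the lone AML library to vary like the normal ones.

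Normal library 3 stood apart from normal libraries 1 and 2 (Pearson correlations of log2 values of 0.924 and 0.944, against 0.988 between the other two), and without it 37 replication genes rose. Rows of the table were deposited with 1 or 2 decimals, and 11.9% of the 4749 tested genes with 1 decimal had a positive change, against 94.5% of the 5417 with 2 decimals. Of the replication genes 45 had 2 decimals, and all 45 had a positive change, beside the 94.5% of tested genes of that row class. Of the 5 with 1 decimal (Orc2, Pola1, Rpa1, Rrm1 and E2f2) 3 had a positive change. The part of the row class in the result was not tested. Markers of other cells also differed between the groups, and their part in these results was not tested. The 9 promyelocyte and progenitor markers, of which 8 rose and 1 fell, summed to 10665 and 11596 RPKM in AML libraries against 331 to 482 RPKM in normal ones, with Cd34 at 0 in both AML libraries. All 8 monocyte markers fell, at 37.1 and 39.5 RPKM in AML libraries against 523 to 907 RPKM. The 12 neutrophil markers, of which 8 fell and none rose, summed to 171709 and 238694 RPKM in AML libraries against 191583 to 299839 RPKM. Most of each sum came from S100a8, S100a9, Ngp and Camp, which missed the threshold. Itgam and Ly6g, genes of the sorting antigens, were present in all 5 libraries, at 169 RPKM or more, but both fell. Erythroid precursors also replicate DNA. The 12 erythroid markers summed to 145 and 149.5 RPKM in AML libraries against 1591, 1009 and 119 RPKM in normal libraries 1 to 3. Of the 11 tested, 1 was lower (Car1) and none higher. The 10 T and NK cell markers summed to 617.5 and 573 RPKM in AML libraries against 57.1 to 63.8 RPKM, nearly all of it in AML libraries from Cd3e (233 and 205 RPKM), Nkg7 (272 and 232 RPKM) and Cd3g (89.5 and 114 RPKM), which rose together with Thy1. Cd3d fell, and Lck, Cd2, Cd4, Cd8a and Ncr1 were below 1 RPKM in all 5 libraries, with Cd8a at 0 in both AML libraries. B lineage markers (11 listed, 4 tested, 1 lower) stayed at 10.9 and 13.6 RPKM against 14.2 to 22.2 RPKM, with Rag1 and Dntt at 0 in both AML libraries. Plasmacytoid dendritic cell markers (7 listed, 5 tested, 3 lower) gave 13.5 and 14.8 RPKM against 25.5 to 32.7 RPKM, with Siglech and Ccr9 at 0 in both AML libraries.

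**Figure D2:**
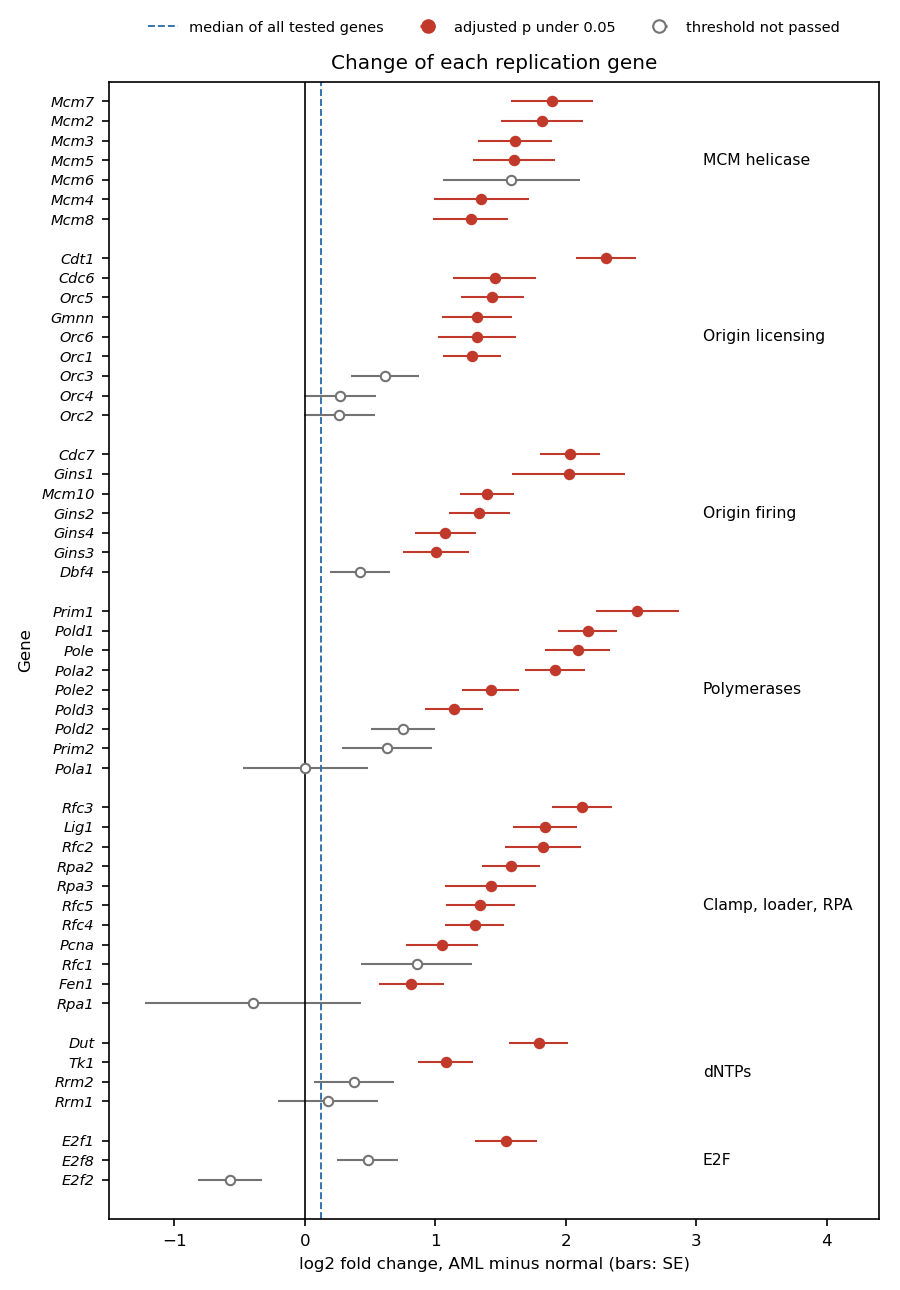
Log2 fold change (AML minus normal, log2(RPKM + 1) scale) of each replication gene with its standard error, in red where the adjusted p is under 0.05, and the median of all tested genes as a dashed line. Prim1 stands highest at 2.55 and E2f2 lowest at -0.57, and the genes to the right of 1 that missed the threshold comprise only Mcm6.

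Promoter sequence did not enter the choice of the replication genes. Windows of 300 bases, 250 before and 50 after the annotated start site (RefSeq, GRCm38.p6), were at hand for 42 of the 50 genes. They were searched on both strands for 4 spellings of the E2F motif, TTTCCCGC, TTTGGCGC, TTTCGCGC and TTTGCCGC, and for the CCAAT box. An E2F spelling stood in the windows of 17 of the 42 genes (40.5%), against 5.05% of 7241 tested genes matched by symbol and 2.6% of all 27025 genes with a window. In related lists described below, a spelling stood in 5 of 12 E2F network genes (41.7%) and 5 of 13 fork chromatin genes (38.5%). It stood in 6 of 20 other fork genes (30%), 0 of 16 other nucleotide genes and 1 of 24 G2 and mitosis genes (4.17%). CCAAT stood in 25 of the 42 (59.5%), against 43.4% of tested genes. Of all tested genes that rose, 92 of 1344 with a window (6.85%) held an E2F spelling. Among replication genes that rose 13 of 29 did, and among those that missed the threshold 4 of 13 did. For CCAAT the split ran the other way, with 14 of 29 (48.3%) that rose and 11 of 13 (84.6%) that missed the threshold. The G2 and mitosis genes also held CCAAT often, in 19 of 24 (79.2%). A match is a description of letters, not a site of binding, and 1 CCAAT match overlapped an E2F match. The 180 bases before the start site are given for 6 genes that rose or, for Mcm6, missed the threshold with both AML libraries above the normal ones. They are also given for Pola1, whose groups overlapped. All were picked among genes with a spelling in those bases. In Mcm3, Mcm8, Cdt1, Lig1, Pold1, Pold3, Pole2 and E2f2 the spellings lay only after the start site. Capitals mark the E2F spellings on either strand.
Mcm5 (chr8:75109329-75109508, + strand): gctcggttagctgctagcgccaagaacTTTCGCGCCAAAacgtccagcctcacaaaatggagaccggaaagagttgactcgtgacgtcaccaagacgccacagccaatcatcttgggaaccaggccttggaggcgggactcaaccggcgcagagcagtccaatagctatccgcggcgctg
Mcm6 (chr1:128359706-128359885, - strand): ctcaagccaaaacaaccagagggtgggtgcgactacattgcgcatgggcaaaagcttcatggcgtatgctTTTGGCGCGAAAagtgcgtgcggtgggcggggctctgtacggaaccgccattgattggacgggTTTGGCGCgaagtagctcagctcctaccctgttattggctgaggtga
Mcm7 (chr5:138171884-138172063, - strand): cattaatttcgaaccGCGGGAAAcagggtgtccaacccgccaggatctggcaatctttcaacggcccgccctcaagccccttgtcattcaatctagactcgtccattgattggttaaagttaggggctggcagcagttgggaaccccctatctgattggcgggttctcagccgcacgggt
Orc1 (chr4:108579274-108579453, + strand): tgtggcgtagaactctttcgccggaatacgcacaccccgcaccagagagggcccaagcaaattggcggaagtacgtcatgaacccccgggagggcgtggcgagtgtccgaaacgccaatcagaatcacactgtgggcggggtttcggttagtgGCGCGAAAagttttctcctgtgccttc
Cdc6 (chr11:98907971-98908150, + strand): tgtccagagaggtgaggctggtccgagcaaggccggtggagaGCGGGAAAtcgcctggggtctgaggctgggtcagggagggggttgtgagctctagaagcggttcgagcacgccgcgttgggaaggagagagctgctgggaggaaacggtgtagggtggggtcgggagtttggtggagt
Gins3 (chr8:95633379-95633558, + strand): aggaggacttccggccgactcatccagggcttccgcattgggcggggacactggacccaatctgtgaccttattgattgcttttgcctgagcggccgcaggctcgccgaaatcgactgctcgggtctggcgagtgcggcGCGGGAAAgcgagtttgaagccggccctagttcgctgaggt
Pola1 (chrX:93632156-93632335, - strand): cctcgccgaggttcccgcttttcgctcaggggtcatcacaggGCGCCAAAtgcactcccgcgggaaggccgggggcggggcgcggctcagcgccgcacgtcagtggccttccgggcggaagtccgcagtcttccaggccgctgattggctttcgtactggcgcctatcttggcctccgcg
In the bases shown, the spelling of Mcm7 begins 165 bases before the start site, and its window holds a further one after the start site. In Mcm5 the run TTTCGCGCCAAA holds overlapping spellings on opposite strands, 153 to 142 bases before the start site, and CCAAT lies 77 and 22 bases before it. Mcm6 holds a like run, TTTGGCGCGAAA, and a further spelling 47 bases before the start. The spelling of Orc1 lies 27 bases, and that of Gins3 41 bases, before the start, whereas those of Cdc6 and Pola1 begin 138 bases before it. E2f1, Rrm1, Rrm2, Pcna and Tk1 had no such spelling in their windows.

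**Figure D3:**
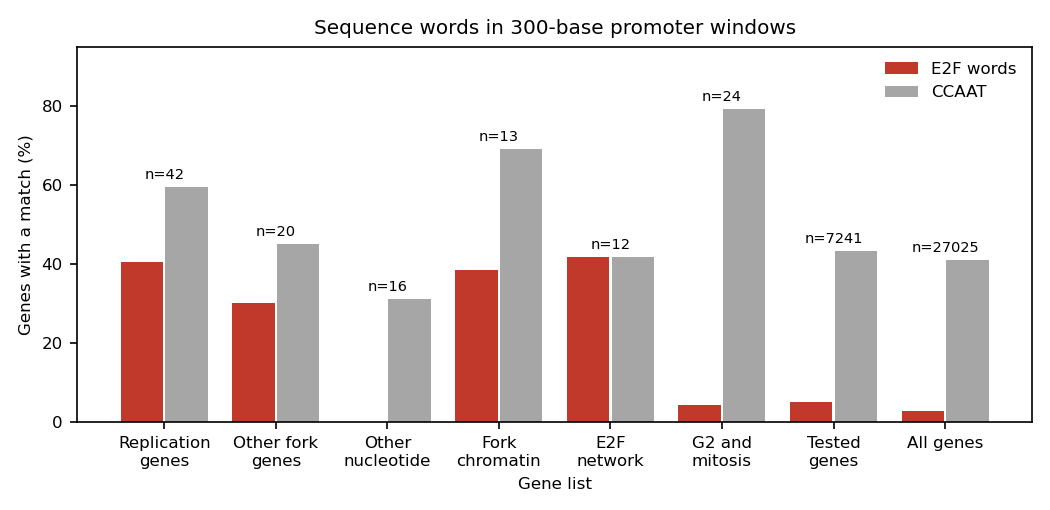
Share of genes (%) whose 300-base promoter window holds an E2F spelling (red) or CCAAT (grey), by gene list, with the number of genes that had a window. E2F spellings stand in 40.5% of the replication genes, 41.7% of the E2F network, 38.5% of fork chromatin genes and 30% of other fork genes. The share is 0% of other nucleotide genes, 4.17% of the G2 and mitosis genes and 5.05% of tested genes.

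The MCM2 to MCM7 proteins form the ring that unwinds DNA, and 5 of their 6 genes rose in AML cells. Mcm2 (chromosome 6, 88833469 to 88848774, mm9) stood at 68.96 and 39.1 RPKM in the AML libraries, against 15.7, 15.9 and 11.03 RPKM in the normal libraries. Mcm3 stood at 89.7 and 51.7 RPKM in the AML libraries, against 21.8, 22.6 and 20.7 RPKM in the normal libraries. Mcm7 (chromosome 5, 138605811 to 138613650, mm9), which overlaps Cops6, Ap4m1 and microRNA genes over 12.6% of its exon bases, stood at 109 and 80.3 RPKM in the AML libraries, against 28.96, 29.2 and 17.2 RPKM in the normal libraries. For each of these the lower AML library was over 2-fold above the highest normal library, and group means differed 3.26-fold for Mcm3 and 3.77-fold for Mcm7. Mcm4 stood at 69.1 and 36.5 RPKM in the AML libraries, against 22.5, 22.7 and 13.5 RPKM in the normal libraries. Mcm5 stood at 99.2 and 75.3 RPKM in the AML libraries, against 32.6, 34.1 and 19.3 RPKM in the normal libraries. Mcm6 stood at 91.5 and 45.2 RPKM in the AML libraries, against 27.7, 31.6 and 10.1 RPKM in the normal libraries. AML library 1 was above AML library 2 for all 6 genes of the ring, and normal library 3 was the lowest normal library for all 6. Log2 fold changes were 1.82 (SE 0.31) for Mcm2, 1.61 (SE 0.28) for Mcm3, 1.35 (SE 0.36) for Mcm4, 1.60 (SE 0.32) for Mcm5 and 1.90 (SE 0.31) for Mcm7, with limma Benjamini-Hochberg adjusted p-values from 0.006 to 0.031. That of Mcm6 was 1.58 with a larger error (SE 0.53, limma Benjamini-Hochberg adjusted p = 0.06), and it passed without normal library 3 (adjusted p = 0.028). Within a library the 6 levels lay close together, with the highest over the lowest at 1.58 and 2.2 in AML libraries 1 and 2, against 2.07, 2.14 and 2.05 in normal libraries 1 to 3. Mcm8, a paralogue outside the ring that acts in homologous recombination, stood at 3.3 and 6.67 RPKM in the AML libraries, against 1.52, 1.54 and 1.1 RPKM in the normal libraries, a low level in both groups that rose (log2 fold change 1.27, SE 0.29, limma adjusted p = 0.017). Calls were lost without one library for Mcm4 (normal library 2 or either AML library, adjusted p up to 0.16), Mcm5 (either AML library, up to 0.075), Mcm7 (AML library 1, 0.051) and Mcm8 (normal library 2 or AML library 2, up to 0.12).

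Among the licensing genes the loading factor Cdt1 rose most, and the 6 ORC subunits divided. Cdt1 (chromosome 8, 125091915 to 125097028, mm9) stood at 45.1 and 60.6 RPKM in the AML libraries, against 9.52, 9.66 and 10.1 RPKM in the normal libraries. The normal libraries lay close together, and both AML libraries were over 4-fold above them (log2 fold change 2.31, SE 0.23, limma Benjamini-Hochberg adjusted p = 8.5e-04). Gmnn, which encodes geminin, the inhibitor that binds CDT1 after origins have fired, stood at 49.6 and 61.7 RPKM in the AML libraries, against 16.7, 22.9 and 25.98 RPKM in the normal libraries. Both partners rose, the inhibitor by less, and the ratio of Cdt1 to Gmnn was 0.91 and 0.983 in AML libraries against 0.569, 0.421 and 0.389 in normal ones. Cdc6, the ATPase that loads the helicase together with CDT1, stood at 15.2 and 8.85 RPKM in the AML libraries, against 4.5, 4.05 and 2.52 RPKM in the normal libraries. It rose although AML library 2 was well below AML library 1.

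Orc1, the subunit that is degraded once S phase begins in human cells, stood at 5.88 and 4.43 RPKM in the AML libraries, against 1.63, 1.77 and 1.19 RPKM in the normal libraries. Orc5 stood at 15.1 and 18.6 RPKM in the AML libraries, against 5.23, 6.84 and 4.81 RPKM in the normal libraries. Orc6 stood at 27.98 and 44.1 RPKM in the AML libraries, against 10.3, 15.1 and 15.7 RPKM in the normal libraries. These 3 subunits rose by 1.28, 1.44 and 1.32 on the log2 scale, with limma Benjamini-Hochberg adjusted p-values from 0.0062 to 0.017. Orc2 stood at 7 and 5.9 RPKM in the AML libraries, against 5.1, 6.9 and 3.9 RPKM in the normal libraries. Orc3 stood at 12.4 and 11.8 RPKM in the AML libraries, against 8.14, 9.31 and 5.65 RPKM in the normal libraries. Orc4 stood at 5.59 and 9.98 RPKM in the AML libraries, against 5.5, 6.72 and 5.99 RPKM in the normal libraries. Of these 3, which missed the threshold, Orc3 had groups that did not overlap and Orc2 and Orc4 had groups that did, the log2 fold change being 0.61 for Orc3 (SE 0.26), 0.27 for Orc2 (SE 0.27) and 0.27 for Orc4 (SE 0.28), at limma adjusted p-values of 0.11, 0.47 and 0.48. Orc2 shares 12% of its exon bases with Nif3l1, and Orc5 shares 12.5% with a pseudogene. Calls were lost without AML library 1 for Orc1 (adjusted p = 0.058) and Cdc6 (0.09), without AML library 2 for Orc5 (0.068) and Gmnn (0.1), and without normal library 2 or AML library 2 for Orc6 (up to 0.14).

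Of the 7 genes that fire licensed origins 6 rose. Cdc7 (chromosome 5, 107393341 to 107413451, mm9), the kinase that phosphorylates the MCM ring, stood at 57.6 and 64.2 RPKM in the AML libraries, against 11.9, 15.6 and 15.1 RPKM in the normal libraries. Dbf4, a regulatory subunit that activates that kinase, stood at 36.5 and 36.8 RPKM in the AML libraries, against 23.1, 29.9 and 28.7 RPKM in the normal libraries. Cdc7 rose 4.28-fold (log2 fold change 2.03, SE 0.23, limma Benjamini-Hochberg adjusted p = 0.0014), while Dbf4, 1.34-fold higher, missed the threshold (log2 fold change 0.42, SE 0.23, limma adjusted p = 0.2). The ratio of Cdc7 to Dbf4 was thus 1.58 and 1.74 in AML libraries, against 0.516, 0.522 and 0.526 in normal libraries. Mcm10, a factor of helicase activation and polymerase recruitment, stood at 18.97 and 20.03 RPKM in the AML libraries, against 6.98, 7.18 and 6.23 RPKM in the normal libraries, with little spread in either group.

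The GINS complex travels with the helicase as a tetramer, and all 4 of its genes rose. Gins1 stood at 17.3 and 39.8 RPKM in the AML libraries, against 3.7, 5.61 and 8.76 RPKM in the normal libraries. Gins2 stood at 12.4 and 10.03 RPKM in the AML libraries, against 3.62, 4.57 and 3.35 RPKM in the normal libraries. Gins3 stood at 8.73 and 13.1 RPKM in the AML libraries, against 4.31, 5.5 and 4.74 RPKM in the normal libraries. Gins1 was over 2-fold apart between the AML libraries and also between the normal ones, yet the groups did not overlap. Gins4, the most abundant of the 4 in the normal libraries, stood at 33.9 and 41.01 RPKM in the AML libraries, against 15.96, 19.8 and 15.9 RPKM in the normal libraries. Log2 fold changes were 2.02 (SE 0.43) for Gins1, 1.34 (SE 0.23) for Gins2, 1.01 (SE 0.25) for Gins3 and 1.08 (SE 0.23) for Gins4, with limma Benjamini-Hochberg adjusted p-values from 0.007 to 0.024. Gins2 shares 67.3% of its exon bases with Gse1 on the other strand, and as no source states strand-aware counting its reads cannot be told apart from those of Gse1. Calls were lost without AML library 2 for Gins1 (adjusted p = 0.11), AML library 1 for Gins2 (0.054), either of these or normal library 1 for Gins4 (up to 0.11), and normal library 1, normal library 2 or AML library 2 for Gins3 (up to 0.17).

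The polymerase genes included the largest rise of the 50 and also a gene with a log2 fold change near 0. Prim1 (chromosome 10, 127452228 to 127467093, mm9), the catalytic primase subunit that lays down RNA primers, stood at 69.1 and 133 RPKM in the AML libraries, against 13.8, 17.2 and 15.7 RPKM in the normal libraries. It was 6.46-fold higher in AML cells (log2 fold change 2.55, SE 0.32, limma Benjamini-Hochberg adjusted p = 0.0021), although AML library 2 was nearly 2-fold above AML library 1. Prim2, the large primase subunit, stood at 25.4 and 13.97 RPKM in the AML libraries, against 11.97, 15.8 and 8.67 RPKM in the normal libraries, with AML library 2 inside the normal range (log2 fold change 0.63, SE 0.34, limma adjusted p = 0.2). Pola1, the catalytic subunit of polymerase alpha, stood at 6.6 and 4.2 RPKM in the AML libraries, against 7.6, 8 and 2.2 RPKM in the normal libraries. Pola2, its accessory subunit, stood at 28.2 and 37.5 RPKM in the AML libraries, against 7.63, 7.37 and 8.62 RPKM in the normal libraries. Pola2 was 4.17-fold higher (log2 fold change 1.92, SE 0.23, limma adjusted p = 0.0017), whereas Pola1 had overlapping groups and a log2 fold change of 0.00 (SE 0.48). Pola1 turned negative without normal library 3 (-0.48) or AML library 1 (-0.27) and under upper quartile (-0.26), equal-total (-0.10) and quantile (-0.09) scaling. The 4 genes encode a single complex, and within it the ratio of Pola2 to Pola1 was 4.28 and 8.92 in AML libraries against 1, 0.921 and 3.92 in normal libraries, so normal library 3 came near AML library 1. That of Prim1 to Prim2 was 2.72 and 9.5 in AML libraries against 1.16, 1.09 and 1.81 in normal libraries.

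Polymerases delta and epsilon copy the lagging and the leading strand. Pold1 (chromosome 7, 51788116 to 51804219, mm9), the catalytic subunit of polymerase delta, stood at 39.3 and 50.5 RPKM in the AML libraries, against 9.53, 8.5 and 9.43 RPKM in the normal libraries. Pole, the catalytic subunit of polymerase epsilon, stood at 19.1 and 24.5 RPKM in the AML libraries, against 5.47, 3.88 and 3.75 RPKM in the normal libraries. Both catalytic genes were near 5-fold higher in AML cells, at log2 fold changes of 2.17 (SE 0.22) and 2.09 (SE 0.25) and limma Benjamini-Hochberg adjusted p-values of 0.001 and 0.0018. Pole2 stood at 17.5 and 16.2 RPKM in the AML libraries, against 5.3, 6.54 and 5.16 RPKM in the normal libraries. Pold3 stood at 32.7 and 39.96 RPKM in the AML libraries, against 14.8, 16.3 and 16.4 RPKM in the normal libraries. Pold2 stood at 8.7 and 7.4 RPKM in the AML libraries, against 4.96, 5 and 3.3 RPKM in the normal libraries. Of these accessory subunits Pole2 (log2 fold change 1.43, SE 0.22) and Pold3 (1.14, SE 0.22) rose, and Pold2 (0.75, SE 0.25) missed the threshold with groups that did not overlap (limma adjusted p = 0.0045, 0.0096 and 0.058). The call of Pold3 was lost without AML library 2 (adjusted p = 0.087).

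Pcna, the sliding clamp and a widely used marker of proliferation, had the highest mean level of the 50 genes in normal cells, although in normal library 1 Rrm2 was marginally above it. It stood at 158 and 112 RPKM in the AML libraries, against 59.6, 77.4 and 55.7 RPKM in the normal libraries. It rose 2.09-fold (log2 fold change 1.05, SE 0.28, limma Benjamini-Hochberg adjusted p = 0.028), below the median of 1.35 for the 11 genes of the clamp, its loader, RPA and Okazaki maturation. Among the 5 loader subunits Rfc2 (chromosome 5, 135058560 to 135074198, mm9) stood at 116 and 159 RPKM in the AML libraries, against 29.9, 36.6 and 48.9 RPKM in the normal libraries. Rfc3 stood at 49.9 and 53.01 RPKM in the AML libraries, against 9.07, 12.4 and 11.9 RPKM in the normal libraries. Both rose, by 1.82 (SE 0.29) and 2.12 (SE 0.23) on the log2 scale (limma adjusted p = 0.0055 and 0.0013). Rfc4 stood at 15.3 and 15.1 RPKM in the AML libraries, against 4.76, 6.64 and 5.43 RPKM in the normal libraries. Rfc5 stood at 34.03 and 25.4 RPKM in the AML libraries, against 11.1, 13.6 and 8.71 RPKM in the normal libraries. Rfc1, the large subunit, stood at 45.9 and 23.8 RPKM in the AML libraries, against 23.5, 22.6 and 10.5 RPKM in the normal libraries. Rfc4 and Rfc5, which share 12.6% and 10.7% of exon bases with Eif4a2 and Wsb2, rose by 1.30 (SE 0.23) and 1.35 (SE 0.27), and Rfc1 missed the threshold (0.86, SE 0.43; limma adjusted p = 0.007, 0.011 and 0.17), with AML library 2 only just above normal library 1.

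RPA coats the single-stranded DNA at the fork, and 2 of its 3 genes rose. Rpa2 stood at 33.3 and 27.7 RPKM in the AML libraries, against 8.68, 10.8 and 9.14 RPKM in the normal libraries. Rpa3 stood at 35.6 and 52.5 RPKM in the AML libraries, against 10.9, 14.8 and 22.8 RPKM in the normal libraries. Rpa1, the large subunit, stood at 15.6 and 1.8 RPKM in the AML libraries, against 12, 13 and 3 RPKM in the normal libraries. Rpa2 (log2 fold change 1.58, SE 0.22) and Rpa3 (1.42, SE 0.35) passed with limma Benjamini-Hochberg adjusted p-values of 0.0032 and 0.023. Rpa1 was the most variable of the 50 genes within both groups, over 8-fold lower in AML library 2 than in AML library 1 and 4-fold or more lower in normal library 3 than in the other normal libraries (-0.40, SE 0.83, limma adjusted p = 0.73), and without AML library 2 its log2 fold change was 0.88. Lig1 (chromosome 7, 13862632 to 13896782, mm9), the ligase that seals Okazaki fragments, stood at 76.8 and 71.2 RPKM in the AML libraries, against 22.6, 21.8 and 16.02 RPKM in the normal libraries. Fen1, the flap nuclease that trims them, stood at 25.8 and 17.02 RPKM in the AML libraries, against 11.1, 11.5 and 11.8 RPKM in the normal libraries. Lig1 rose 3.68-fold (log2 fold change 1.84, SE 0.25, limma adjusted p = 0.0026) and Fen1 1.87-fold (0.82, SE 0.25, limma adjusted p = 0.044). Fen1 shares 84.2% of its exon bases with genes on the other strand, so its reads cannot be told apart from theirs. Calls were lost without any one library but normal library 3 for Pcna, Rpa3 and Fen1 (adjusted p up to 0.15, 0.17 and 0.21), without either AML library for Rfc5 (up to 0.076), and without AML library 2 for Rfc2 (0.064) and Rfc4 (0.063).

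Of the 4 genes of nucleotide supply 2 rose. Dut (chromosome 2, 125072926 to 125084344, mm9), the dUTPase that keeps uracil out of DNA, stood at 36.9 and 38.05 RPKM in the AML libraries, against 8.52, 10.4 and 11.6 RPKM in the normal libraries. Tk1, the cytosolic thymidine kinase, stood at 31.2 and 28.7 RPKM in the AML libraries, against 13.9, 14.6 and 12.5 RPKM in the normal libraries. Both rose, by 1.79 (SE 0.23) and 1.08 (SE 0.21) on the log2 scale (limma Benjamini-Hochberg adjusted p = 0.0021 and 0.01), the call of Tk1 being lost without either AML library (adjusted p up to 0.07). Ribonucleotide reductase makes all deoxynucleotides, and neither of its genes passed. Rrm1, the large subunit, stood at 59.4 and 26.3 RPKM in the AML libraries, against 39.6, 40.2 and 26.7 RPKM in the normal libraries. Rrm2 (chromosome 12, 25393106 to 25399011, mm9), the small subunit of S phase, stood at 101 and 54.3 RPKM in the AML libraries, against 59.7, 57.7 and 53.97 RPKM in the normal libraries. AML library 1 was above all normal libraries for both genes, whereas AML library 2 lay within or just under the normal range (log2 fold changes 0.18, SE 0.38, and 0.37, SE 0.31; limma adjusted p = 0.75 and 0.38). Without AML library 1 both turned negative (-0.40 and -0.07), and Rrm1 also did so without normal library 3 (-0.01) and under upper quartile scaling (-0.12). The ratio of Rrm2 to Rrm1 overlapped between the groups, at 1.71 and 2.07 in AML libraries against 1.51, 1.44 and 2.02 in normal libraries.

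Of the 3 E2F genes 1 rose. E2f1 (chromosome 2, 154385143 to 154395628, mm9), an activator of S phase genes, stood at 21.3 and 16.3 RPKM in the AML libraries, against 5.75, 6.66 and 4.94 RPKM in the normal libraries. E2f2, a further activator, stood at 23.6 and 21.7 RPKM in the AML libraries, against 33.9, 28.7 and 41 RPKM in the normal libraries. E2f8, an atypical member that represses E2F targets late in S phase, stood at 56.4 and 43.7 RPKM in the AML libraries, against 36.6, 32.5 and 36.9 RPKM in the normal libraries. E2f1 rose 3.25-fold (log2 fold change 1.54, SE 0.24, limma Benjamini-Hochberg adjusted p = 0.0046), with the groups well apart. E2f2 (-0.57, SE 0.24, limma adjusted p = 0.11) and E2f8 (0.48, SE 0.23, limma adjusted p = 0.16) missed the threshold, E2f2 with both AML libraries below all normal ones. The ratio of E2f1 (2 decimals) to E2f2 (1 decimal) was 0.904 and 0.751 in AML libraries, against 0.17, 0.232 and 0.12 in normal libraries.

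Within each group the replication genes varied in a shared way. The difference of AML library 2 minus AML library 1 and that of normal library 3 minus the mean of normal libraries 1 and 2 share no library, and across the 50 genes they had a Spearman correlation of 0.715, against 0.59 across all 10166 tested genes, a description over genes, which are not independent replicates. Both differences were lower for longer transcripts, with a Spearman correlation with exon length of -0.31 and -0.389 across 9962 genes and of -0.249 and -0.389 across the 50. For the log2 fold change, AML minus normal, that correlation was -0.227 across the 9962 genes and -0.197 across the 50. Rpa1, Pola1, Mcm6 and Rfc1 were low in both AML library 2 and normal library 3, and Gins1 and Rpa3 were high in both. With the trend of level on exon length removed in each library, an alternative chosen after the data were seen, 37 replication genes rose, with Mcm6 and Orc3 added and Fen1 lost.

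**Figure D4:**
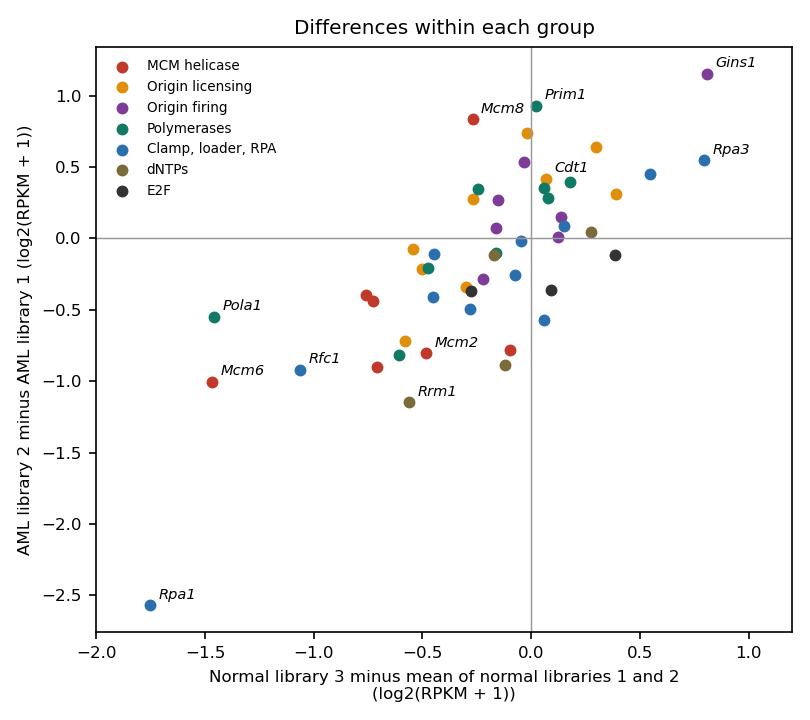
Difference between the AML libraries (vertical) against the difference of normal library 3 from the mean of normal libraries 1 and 2 (horizontal), both in log2(RPKM + 1), for the 50 replication genes coloured by role. Points run from Rpa1 at the lower left (-2.57 and -1.75) to Gins1 at the upper right (1.15 and 0.81), with a Spearman correlation of 0.715.

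Other genes of the fork, which were listed beside the 50, were also mostly higher. Of 27 listed 25 were tested, 16 rose and none fell, with a median near 1. For this list and the genes of chromatin assembly that follow, the background was 19.3% higher and 11.8% lower among all tested genes. Upper quartile or equal-total scaling gave 11 higher, and fits without normal library 2, AML library 1 or AML library 2 gave 10, 9 and 4. Timeless, a fork protection factor, stood at 32.3 and 36.8 RPKM in the AML libraries, against 4.42, 4.51 and 4.16 RPKM in the normal libraries. Dscc1, of an alternative clamp loader, stood at 14.3 and 18.1 RPKM in the AML libraries, against 2.55, 3.73 and 2.37 RPKM in the normal libraries. Recql4, a helicase of origin firing, stood at 9.39 and 10.04 RPKM in the AML libraries, against 1.5, 1.59 and 1.91 RPKM in the normal libraries. In each the lower AML library was over 3-fold above the highest normal library (log2 fold changes 2.73, 2.16 and 2.01, SE 0.21, 0.25 and 0.20, limma Benjamini-Hochberg adjusted p = 3.9e-04, 0.0016 and 9.5e-04). Among 15 genes of chromatin assembly at the fork 10 rose and none fell (median 1.14), but 5 rose under upper quartile scaling, 6 under equal totals, and 5, 5 and 4 without normal library 2, AML library 1 or AML library 2. Tonsl, a histone reader at the fork, stood at 17.4 and 20.6 RPKM in the AML libraries, against 2.3, 2.02 and 3.09 RPKM in the normal libraries. Uhrf1, which guides maintenance methylation, stood at 65.8 and 77.8 RPKM in the AML libraries, against 19.4, 20.6 and 23.3 RPKM in the normal libraries. Hells, a chromatin remodeller, stood at 26.6 and 28.02 RPKM in the AML libraries, against 8.02, 10.5 and 5.3 RPKM in the normal libraries. These 3 rose by 2.53, 1.72 and 1.70 (SE 0.24, 0.23 and 0.29, limma adjusted p = 7.2e-04, 0.0024 and 0.007), the call of Hells being lost without AML library 2 (adjusted p = 0.07).

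Of 18 other nucleotide genes 7 rose and 2 fell (median 0.70), against 19.3% and 11.8% of all tested genes, so that the lower calls were at about the background share, and 4 and 3 rose without AML library 1 or 2. The 2 that fell were Samhd1 and Rrm2b. Samhd1, which breaks down deoxynucleotides, stood at 31.2 and 24.5 RPKM in the AML libraries, against 189, 169.7 and 133 RPKM in the normal libraries. Dtymk, thymidylate kinase, stood at 86.7 and 113 RPKM in the AML libraries, against 15.1, 20.3 and 22.96 RPKM in the normal libraries. Shmt1, a serine hydroxymethyltransferase, stood at 13.8 and 8.54 RPKM in the AML libraries, against 2.5, 2.13 and 1.85 RPKM in the normal libraries. Samhd1 was thus 5.88-fold lower in AML cells, while Dtymk and Shmt1 were 5.14-fold and 5.17-fold higher (log2 fold changes -2.51, 2.31 and 1.92, SE 0.26, 0.27 and 0.26, limma Benjamini-Hochberg adjusted p = 0.0011, 0.0017 and 0.0029). Rrm2b, the p53-inducible reductase subunit, stood at 3.5 and 1.9 RPKM in the AML libraries, against 9.2, 9 and 5.1 RPKM in the normal libraries, and its call (limma adjusted p = 0.029) was lost without any one library but normal library 3 (up to 0.21).

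Among 17 genes of the E2F network 16 were tested, 4 rose and none fell (median 0.39), a share near the background of 19.3% higher among all tested genes, with 1 higher under equal totals, 1 without normal library 2 or AML library 1 and 2 without AML library 2. They were Ccne1, Mybl2, Cdc25a and Skp2. Ccne1, cyclin E1, stood at 20.5 and 18.6 RPKM in the AML libraries, against 6.91, 7.6 and 7.15 RPKM in the normal libraries. Mybl2, a partner of the complexes that follow E2F, stood at 12.6 and 7.76 RPKM in the AML libraries, against 4.04, 3.86 and 2.8 RPKM in the normal libraries. Cdc25a, a phosphatase that activates CDK2, stood at 49.6 and 34.2 RPKM in the AML libraries, against 19.5, 17.2 and 19.8 RPKM in the normal libraries. Log2 fold changes were 1.32, 1.27 and 1.09 (SE 0.21, 0.28 and 0.25, limma Benjamini-Hochberg adjusted p = 0.0048, 0.015 and 0.017), and calls were lost without normal library 2 or AML library 1 for Mybl2 (up to 0.088) and without normal library 2 or either AML library for Cdc25a (up to 0.097). Skp2, of the ligase that removes CDK inhibitors, lost its call without any one library but normal library 3 (limma adjusted p up to 0.23).

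Of 30 tested genes of G2 and mitosis 1 rose, Cdk1, and 5 fell, against 19.3% and 11.8% of all tested genes, so that the lower calls were near the background share. Both AML libraries lay above all normal ones for 3 of the 30 and below them for 12, against 34.8% and 22.1% of all tested genes. Of these 30 rows 27 were deposited with 1 decimal and 3 (Cdk1, Cenpa and Ttk) with 2, whereas 5 of the 50 replication genes had 1 decimal, and the part of this row class in the difference between the lists was not tested. Their median was -0.32, and it was below 0 under each scaling tried. Summed levels were 944 and 795 RPKM in AML libraries, against 1105, 1131 and 1054 RPKM in normal libraries. Cdk1, the mitotic kinase, stood at 46.6 and 46.04 RPKM in the AML libraries, against 22.7, 25.9 and 25.1 RPKM in the normal libraries. Ccna2, cyclin A2, stood at 28.5 and 11.5 RPKM in the AML libraries, against 55.4, 60.5 and 33.9 RPKM in the normal libraries. Cdc25b, a phosphatase that activates CDK1, stood at 6.7 and 4.9 RPKM in the AML libraries, against 14.7, 13.1 and 29.3 RPKM in the normal libraries. Nusap1, a spindle protein, stood at 27.9 and 18.8 RPKM in the AML libraries, against 50.8, 59.8 and 43.2 RPKM in the normal libraries. Ccna2, Cdc25b and Nusap1 fell, with log2 fold changes of -1.37, -1.48 and -1.12 (SE 0.43, 0.37 and 0.27, limma Benjamini-Hochberg adjusted p = 0.05, just under the threshold before rounding, 0.024 and 0.022), and Cdk1 rose by 0.89 (SE 0.21, limma adjusted p = 0.021). Ccnb1 and Ube2c also fell. The proliferation markers Mki67 and Top2a missed the threshold, Mki67 at 129.9 and 90.6 RPKM in the AML libraries, against 157, 111 and 103 RPKM in the normal libraries. The ratio of Pcna to Mki67 was 1.21 and 1.23 in AML libraries, against 0.378, 0.695 and 0.54 in normal ones, and that of Mcm2 to Top2a was 0.945 and 0.679 against 0.142, 0.148 and 0.167. In both ratios the upper gene had 2 decimals and the lower gene 1. Each of the 6 calls was lost without at least one library (adjusted p up to 0.31), with 0 to 9 genes lower across the fits without one library and 0 or 1 higher, and the difference between the 2 lists was not tested. Upper quartile scaling gave 8 lower and none higher, and equal totals 2 lower and none higher.

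**Figure D5:**
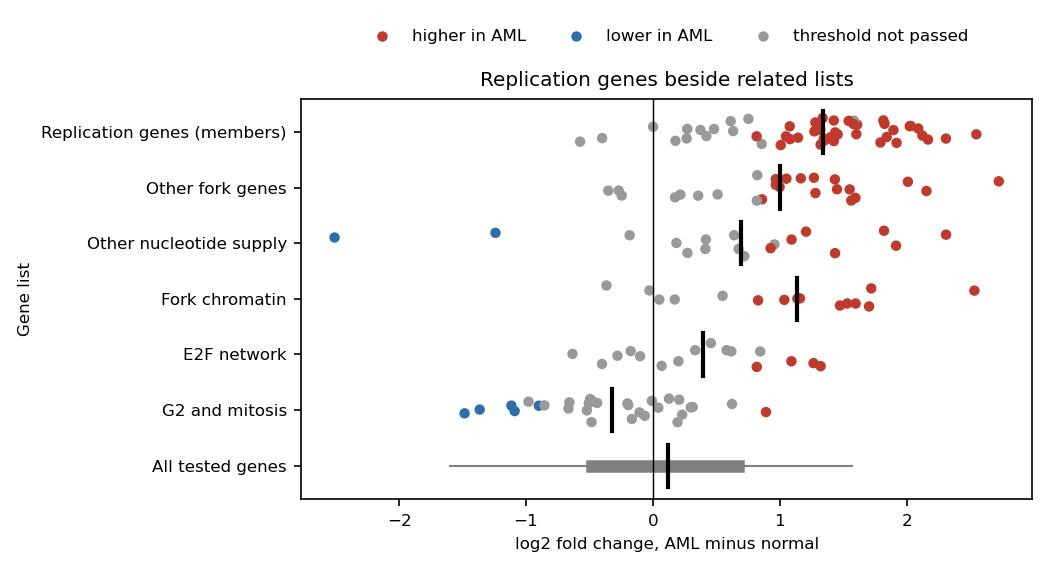
Log2 fold change (AML minus normal) of each tested gene of the replication genes and 5 related lists, with red for higher, blue for lower and grey for the threshold not passed, and black lines for medians. All tested genes are drawn as a bar from the 25th to the 75th and a line from the 5th to the 95th percentile. The median falls at 1.34 for the replication genes and at -0.32 for the G2 and mitosis genes.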

How the data were processed

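RNA-seq libraries were made from total RNA of sorted cells with a TruSeq kit, per the labels' protocols. The authors deposited values that were taken as RPKM, although neither labels nor header give a unit. Library totals differed (472234 to 638584 RPKM), whereas RPKM times exon kb came to 1060497 to 1125154 per library. The submitters' processing notes give mm9 as the build. How reads were aligned and counted was not given in the sources used here. As no counts were at hand, depth is unknown and no count test was possible. Each of the 5 columns was matched to its sample by title.

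The 10166 genes that reached 1 RPKM in 2 or more libraries were compared on log2(RPKM + 1), which understates the change of low genes, with limma 3.58.1 in R 4.3.3 (variance trend, robust, two-sided), Benjamini-Hochberg adjustment over all of them and a threshold of 0.05. The replication genes, lists and tests were chosen with earlier results of these data known, and the ratios of gene pairs after their values were seen. Values in each library are given for the replication genes, and from each related list for the 3 called genes with the largest change; cell type markers are given as sums. Rrm2b, Cdk1, Mki67, Top2a, Ccnb1, Ube2c, Skp2, Car1 and all other cell type markers named singly lie outside that rule, chosen with their values in view. Of 176 list entries 175 matched a feature, some through RefSeq synonyms, and mm9 positions and exon lengths came from GENCODE M1.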

Additional observations from a re-analysis of the deposited data

How the results depend on the processing

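The number of higher replication genes, 36, was within 1.5 times under each setting tried except without AML library 2, ranging from 19 to 37 over fits without one library. None was lower except under upper quartile scaling (1, E2f2). Their median of 1.34 was 1.49 with a pseudocount of 0.1, 1.06 under upper quartile scaling and 1.26 to 1.42 without one library. Over the whole table, higher genes numbered 1128 under upper quartile scaling (1687 lower), and fits without one library gave 326 to 2757 higher and 348 to 2142 lower genes. Log2 fold changes that turned sign all belonged to genes that missed the threshold. These were Pola1 (upper quartile -0.26, equal totals -0.10, quantile -0.092, fits without one library -0.48 to 0.28), Rrm1 (upper quartile -0.12, without one library -0.40 to 0.75), Rrm2 (without one library -0.071 to 0.82), Orc4 (without one library -0.10 to 0.64) and Rpa1 (without one library -1.68 to 0.88). The cause was not tested, except that fits without one library hold fewer samples. Of the 36 calls 15 passed in every fit without one library. Removing the filter gave 32 higher genes, a filter of 5 RPKM 34 of the 48 genes tested, quantile normalization 34, and rounding to 1 decimal or fitting without variance trend and robust estimation 36. No paired analysis was possible because the labels give the groups no shared replicate numbers that pair samples.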
